A study of Mus musculus with 6 samples.

Results

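The genes described here were *Trp53*, which encodes the transcription factor p53, and 9 genes known as its targets (*Mdm2*, *Ccng1*, *Sesn1*, *Zmat3*, *Phlda3*, *Eda2r*, *Trp53inp1*, *Btg2* and *Plk2*). They were chosen by symbol, with earlier results of these data known, and all 10 were found among the 14548 genes with expression values. RNA-seq was performed on 6 libraries of C2C12 cells, a mouse myoblast line, with 3 libraries labelled WT and 3 labelled MSTN-KO. The MSTN-KO cells are the line C11, in which exon 3 of the myostatin gene was targeted with CRISPR/Cas9, whereas the WT libraries carry the same strain label, C11, and were grouped by genotype. For C11 cells the study reported a disrupted target sequence and, by Western blot, no myostatin protein. All cells were described as skeletal muscle myoblasts, and the study grew C2C12 cells in DMEM with fetal bovine serum. Since every MSTN-KO library comes from 1 line, loss of myostatin cannot be told apart from other ways in which this line differs from WT. The study asked whether cells without myostatin restrain their own proliferation, and p53 is a main brake on proliferation. *Mstn* itself was at 0.0211, 0 and 0.0399 FPKM in WT and at 0.0269, 0.0586 and 0.0390 FPKM in MSTN-KO, so it was near 0 in both groups and its RNA does not check the labels.

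p53 is held low in unstressed cells because MDM2, the product of one of its own targets, marks it for degradation. DNA damage or other stress frees p53 from MDM2, and p53 then binds paired half-sites near its target genes and raises their transcription. The targets arrest the cell cycle, repair DNA, lower reactive oxygen and growth signalling, or start apoptosis. Several of them are also switched by other factors, since *Btg2* and *Plk2* respond to growth factors and *Sesn1* to FoxO factors. p53 activity is set mostly at the protein level, which RNA does not measure.

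Of the 10 genes, *Btg2*, *Eda2r* and *Ccng1* were downregulated in the MSTN-KO libraries, *Sesn1* was upregulated, and the other 6 did not pass the test. Among all tested genes 8.96% were called lower and 8.78% higher. The calls of *Btg2* and *Eda2r* held with other processing and with any library left out, whereas those of *Ccng1* and *Sesn1* were lost in several of these fits. *Trp53* RNA itself was abundant in both groups and differed by only 1.13 times. Among other p53 targets, *Cdkn1a* and *Pmaip1* also fell, but *Fdxr*, *Pltp*, *Dcxr* and *Ddit4* rose, so targets were called in both directions.

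Expression was given as FPKM, a fragment number divided by exon length and by the size of the library. Levels of different genes in a library can therefore be compared, but only roughly, since differences that go with gene length remained between the libraries. The fold change on the log2 scale (log2FC) is the difference of mean log2(FPKM + 1), MSTN-KO minus WT, which understates the change of genes with low FPKM. Tests were fitted with limma, with standard errors (SE) moderated over 10837 genes that reached 1 FPKM in any library, and a gene was called when its Benjamini-Hochberg adjusted p over all these genes was under 0.05. By this rule 17.7% of all tested genes were called, 8.78% higher and 8.96% lower in MSTN-KO. Among the 10 genes, 4 were called, 1 higher and 3 lower. All 10 passed the filter on low values, and 9 had at least 1 FPKM in every library. The exception was *Trp53inp1*.

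Several features of the libraries moved with the groups. The FPKM of all genes summed to 723704.6 to 764523.5 in the WT libraries and to 856314.1 to 999579.0 in the MSTN-KO libraries. Of 16 tested genes of muscle differentiation, 16 were called lower in MSTN-KO, beside 8.96% of all tested genes. The summed FPKM of the list was 348 to 1211 in the WT libraries and 59.6 to 99.6 in the MSTN-KO libraries, with WT replicate 3 the lowest of WT. Myoblast markers were present, with *Myod1* at 90.8 to 103.6 FPKM in the MSTN-KO libraries and 126 to 167.5 FPKM in the WT libraries. Of 9 tested myoblast markers, 5 were called lower and 1 higher in MSTN-KO, beside 8.96% and 8.78% of all tested genes. The higher 1 was *Pax7*, with a mean of 1.02 FPKM in WT and 2.19 FPKM in MSTN-KO. No endothelial marker passed 0.0581 FPKM and no epithelial marker passed 0.421 FPKM in any library. Fibroblast markers summed to 10.5 to 16.4 FPKM in WT and 11.3 to 19.1 FPKM in MSTN-KO, macrophage markers to 1.146 to 1.51 and 0.726 to 2.45 FPKM, and adipocyte markers to 0.147 to 0.324 and 0.919 to 1.76 FPKM. In MSTN-KO replicate 3 the longest of 4 equal groups of genes by exon length had a median deviation of -0.20 on the log2 scale from their means over the 6 libraries, and the shortest group had 0.19. The part of these differences in the results below was not tested, and in such bulk samples fewer cells of a type and less RNA per cell cannot be told apart. The number of fragments per library is not given with FPKM, so counting error is unknown.

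**Figure D1:**
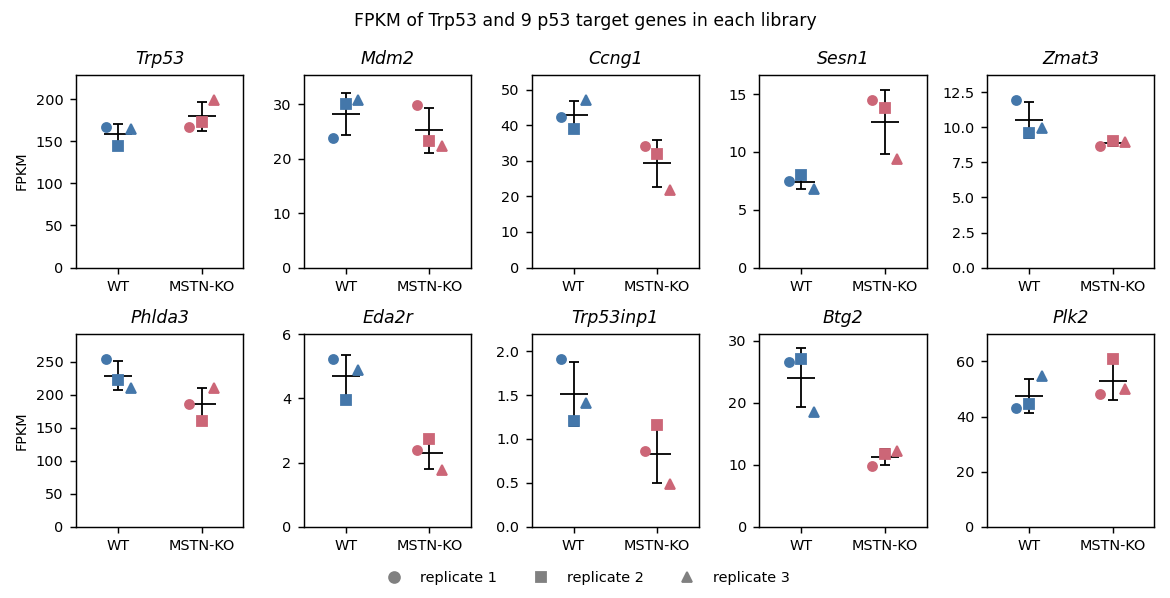
FPKM (vertical axes, each from 0) of *Trp53* and 9 target genes in each library. Points are libraries, with replicates 1, 2 and 3 as circle, square and triangle, and the black line and bar give the mean and SD of 3 libraries. *Eda2r*, *Btg2* and *Ccng1* are lower and *Sesn1* is higher in each MSTN-KO library than in any WT library, while the groups overlap for *Mdm2* and *Plk2*.

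The sequences that p53 recognises were looked for first, because they show which of these genes carry a candidate binding site beside their start. The p53 consensus site is a pair of 10-base half-sites without a spacer, each made of purines, a central core of 4 bases that begins with C and ends with G around A or T, and pyrimidines. RefSeq promoter windows of 300 bases on GRCm38.p6 (250 before and 50 after each start) were searched on the gene's strand. The site is symmetric, so the other strand reads the same. There were windows for 8 of the 10 genes (9 windows), and for each the closest match was taken. At most 1 mismatch to the 20-base consensus was found in 0.0883% of all 32851 windows. Of the windows of the 10 genes 1 was among these, that of *Ccng1*, and of the 53 windows of other p53 targets 3 were, those of *Cdkn1a*, *Rps27l* and *Gtse1*. These 4 sites are shown 5′ to 3′ on the gene's strand, with bases 4 to 7 of each half-site in capitals, since they are the closest matches among the genes studied here.
Ccng1: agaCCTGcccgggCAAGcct
Cdkn1a: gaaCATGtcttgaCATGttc
Rps27l: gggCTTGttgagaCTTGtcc
Gtse1: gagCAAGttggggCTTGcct

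The *Ccng1* site lies at chr11:40755462-40755481 on the minus strand, and its first base is 195 bases before the start. The *Cdkn1a* site lies at chr17:29090928-29090947 on the plus strand, in the window of the upstream of its RefSeq starts and 2822 bases before the downstream one. The *Rps27l* site lies at chr9:66946296-66946315 on the plus strand, with its first base 117 bases before the downstream of its RefSeq starts. This site is inside the gene, which begins at 66946086, and the window of the upstream start had 4 mismatches at best. The *Gtse1* site is at chr15:85859945-85859964 on the plus strand and begins 1 base before the downstream of its RefSeq starts. It is likewise inside the gene, which begins at 85859745, and the window of the upstream start had 6 mismatches at best. *Ccng1* and *Cdkn1a* RNA were downregulated in the MSTN-KO libraries, whereas *Rps27l* (861 ± 96.9 against 966 ± 102 FPKM, WT against MSTN-KO, SD, n = 3, adjusted p = 0.430) and *Gtse1* (28.7 ± 1.98 against 30.7 ± 4.56 FPKM, SD, n = 3, adjusted p = 0.698) were not called. The closest matches had 3 mismatches in *Trp53* and *Sesn1*, 4 in *Btg2*, 5 in *Mdm2*, *Phlda3* and *Plk2* and 6 in *Eda2r*. The *Sesn1* match was in the window of its downstream start, and the window of its upstream start had 6 mismatches at best. The shares of all windows are per window, not per gene. At most 3 mismatches were found in 6.29% of all windows and at most 4 in 30.2%, so a match with 4 mismatches is frequent by itself. A match is only a likeness of letters, and these windows cover only the 300 bases around each start.

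**Figure D2:**
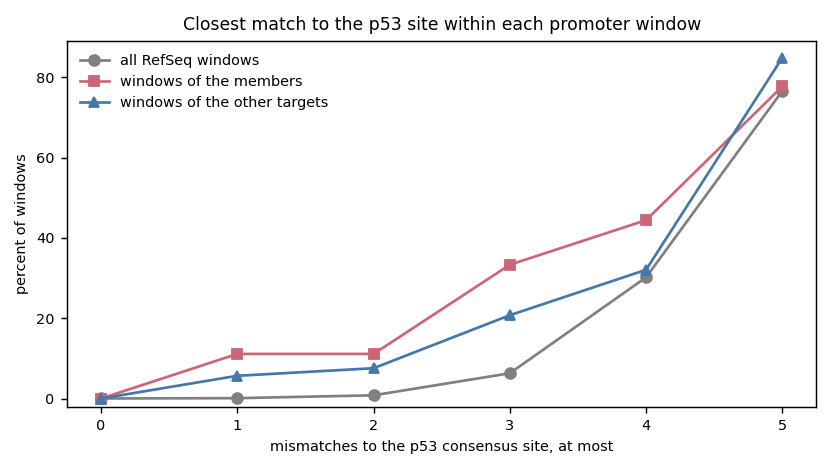
Percent of promoter windows (vertical axis) whose closest match to the 20-base p53 consensus has at most the number of mismatches on the horizontal axis. Grey circles are all 32851 RefSeq windows, red squares the 9 windows of the described genes and blue triangles the 53 windows of other p53 targets. At 1 mismatch the shares are 0.0883%, 11.1% and 5.66%.

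*Trp53* (ENSMUSG00000059552, chromosome 11, 69580359 to 69591873 on GRCm38) had levels, in the order of replicates 1, 2 and 3 used throughout, of 167, 145 and 165 FPKM for WT. The MSTN-KO libraries had 167, 173 and 199 FPKM. Every MSTN-KO library was above every WT library, but WT replicate 1 and MSTN-KO replicate 1 were 166.8 and 167.2 FPKM. The mean was 159 ± 12.1 FPKM in WT and 180 ± 17.2 FPKM in MSTN-KO (SD, n = 3), and the log2FC of 0.18 (95% interval -0.0934 to 0.447) did not pass the test (adjusted p = 0.348), and it was -0.11 when each library was scaled to a sum of 1000000, a scaling that moves the median of all genes by -0.26. The gene ranked between percentiles 95.3 and 95.9 of all genes in the 6 libraries. By Euclidean distance of mean-centred log2 values over the 6 libraries, the 3 tested genes with the most similar pattern to *Trp53* were *Mcm2* (distance 0.0633), *Ftsj1* (0.0676) and *Slc2a1* (0.0714). The median distance of all tested genes was 0.572.

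*Mdm2* (ENSMUSG00000020184, chromosome 10, 117688875 to 117710758), which encodes the ubiquitin ligase that degrades p53, was at 23.9, 29.96 and 30.8 FPKM in WT and at 29.9, 23.2 and 22.4 FPKM in MSTN-KO. The groups overlapped, with WT replicate 1 near the lower MSTN-KO libraries and MSTN-KO replicate 1 near the higher WT libraries. With a log2FC of -0.16, *Mdm2* did not pass the test (adjusted p = 0.485), and the 95% interval of -0.489 to 0.165 spans both directions. Relative to *Trp53* in the same library, *Mdm2* was 14.3%, 20.7% and 18.7% in WT and 17.9%, 13.4% and 11.2% in MSTN-KO (p = 0.2 by a two-sided exact permutation test, whose smallest p here is 0.1).

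Targets that act on the cell cycle or on growth came next. *Btg2* (ENSMUSG00000020423, chromosome 1, 134075170 to 134079120), an antiproliferative gene that recruits mRNA deadenylation and is also an immediate early gene, showed the largest fall. It was at 26.6, 27.0 and 18.5 FPKM in WT and at 9.80, 11.7 and 12.2 FPKM in MSTN-KO. The groups were far apart, and WT replicate 3 was the lowest WT library. *Btg2* was 2.14 times higher in WT, with a log2FC of -1.02 and an SE of 0.16 (adjusted p = 0.00106). It lies on chromosome 1, whose 627 tested genes had a median of -0.25. By the study's own criterion, an unadjusted p under 0.05 with a log2FC beyond 1 in size, *Btg2* was the only 1 of the 10 genes called lower and 0 were called higher, against 2.3% lower and 1.21% higher among all tested genes (limma).

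*Ccng1* (ENSMUSG00000020326, chromosome 11, 40748552 to 40755311) encodes cyclin G1, which acts with a phosphatase on MDM2. Its levels were 42.3, 39.1 and 47.2 FPKM in WT and 34.2, 32.1 and 21.7 FPKM in MSTN-KO. The 3 MSTN-KO libraries were below all WT libraries, and replicate 3 was well below the other MSTN-KO libraries. *Ccng1* fell with a log2FC of -0.55 and an SE of 0.17 (adjusted p = 0.0350). The call was lost without MSTN-KO replicate 3 (-0.36, adjusted p = 0.106), WT replicate 1 (0.0903), WT replicate 2 (0.0611) or WT replicate 3 (0.103), without the filter on low values (0.0877), without the trend (0.0520) and after a correction for gene length and GC content (-0.35, adjusted p = 0.0684).

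*Plk2* (ENSMUSG00000021701, chromosome 13, 110395046 to 110400844), a kinase of the polo family that responds to both p53 and growth factors, had 43.2, 44.5 and 54.6 FPKM in WT and 48.3, 60.9 and 49.9 FPKM in MSTN-KO. The groups overlapped. *Plk2* did not pass, with a log2FC of 0.16 (95% interval -0.143 to 0.461, adjusted p = 0.456) that was -0.12 under scaling to a sum of 1000000, while the 410 tested genes of chromosome 13 had a median of -0.34.

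*Sesn1* (ENSMUSG00000038332, chromosome 10, 41809935 to 41908424), a sestrin that restrains mTORC1 and oxidative stress, was the only upregulated gene of the 10. It was at 7.46, 8.04 and 6.802 FPKM in WT and at 14.5, 13.8 and 9.42 FPKM in MSTN-KO. All MSTN-KO libraries were above WT, with replicate 3 the closest. *Sesn1* was 1.69 times higher in MSTN-KO and had a log2FC of 0.67 with an SE of 0.17 (adjusted p = 0.0163). The call was lost without MSTN-KO replicate 1 (adjusted p = 0.0777), WT replicate 1 (0.0531) or WT replicate 3 (0.0521), without the filter on low values (0.0554) and when each library was scaled to a sum of 1000000 (0.42, adjusted p = 0.159). Relative to the median shift of that scaling, *Sesn1* was still at 0.67.

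*Phlda3* (ENSMUSG00000041801, chromosome 1, 135766119 to 135769136), whose product blocks AKT at the membrane, was the most abundant target among the 9. It was at 254, 222 and 211 FPKM in WT and at 187, 161 and 210.7 FPKM in MSTN-KO. WT replicate 3 and MSTN-KO replicate 3 nearly met, at 210.96 and 210.66 FPKM. The log2FC was -0.30 (95% interval -0.597 to -0.0106) and did not pass after adjustment (adjusted p = 0.139). It passed after the length and GC correction (-0.42, adjusted p = 0.00389), quantile normalization (-0.47, 0.00967) and with libraries scaled to a sum of 1000000 (-0.59, 0.00354) or by percentile 75 (-0.36, 0.0466). *Phlda3* lies on chromosome 1, like *Btg2*.

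The remaining genes bear on apoptosis and on RNA control. *Eda2r* (ENSMUSG00000034457, X chromosome, 97333840 to 97377216) encodes a receptor of the TNF receptor family for ectodysplasin A2. It was at 5.23, 3.96 and 4.88 FPKM in WT and at 2.40, 2.74 and 1.77 FPKM in MSTN-KO. The lowest WT library stood above the highest MSTN-KO library by over 1 FPKM. *Eda2r* was 2.03 times higher in WT, with a log2FC of -0.79 and an SE of 0.17 (adjusted p = 0.00715). With each library left out in turn, its log2FC ran from -0.88 to -0.67 and the adjusted p reached at most 0.0378. The gene of its ligand, *Eda*, was not analysed here.

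*Trp53inp1* (ENSMUSG00000028211, chromosome 4, 11156431 to 11174379), a stress protein that aids p53 phosphorylation and autophagy, was the lowest of the 10, at 1.91, 1.20 and 1.41 FPKM in WT and 0.865, 1.16 and 0.483 FPKM in MSTN-KO. The groups did not overlap, by 1.20 against 1.16 FPKM. The log2FC was -0.46 (95% interval -0.872 to -0.0427, adjusted p = 0.117), and it moved to -0.20 once length and GC content were corrected for and to -0.83 with 0.1 as the pseudocount.

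*Zmat3* (ENSMUSG00000027663, chromosome 3, 32334792 to 32366014), a zinc finger protein that binds AU-rich RNA and regulates splicing, was at 11.98, 9.57 and 9.98 FPKM in WT and at 8.67, 9.02 and 8.996 FPKM in MSTN-KO. The MSTN-KO libraries lay close together, just under the lowest WT library. *Zmat3* did not pass, with a log2FC of -0.21 (95% interval -0.516 to 0.0910, adjusted p = 0.315), but it was called lower with libraries scaled to a sum of 1000000 (-0.48, adjusted p = 0.0374).

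Over the 10 genes, the median log2FC was -0.26, against -0.00078 over all tested genes. In 8 of the 10 genes the groups did not overlap, 2 higher and 6 lower in MSTN-KO, whereas 37.4% of all tested genes did not overlap, 19.3% higher and 18.1% lower. At an unadjusted limma p under 0.05 there were 5 lower genes and 1 higher, beside 16.2% of all tested genes lower and 16.3% higher. *Btg2* and *Eda2r* kept their calls under every limma alternative of scaling, filtering, pseudocount, trend, correction, blocking and left-out library.

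**Figure D3:**
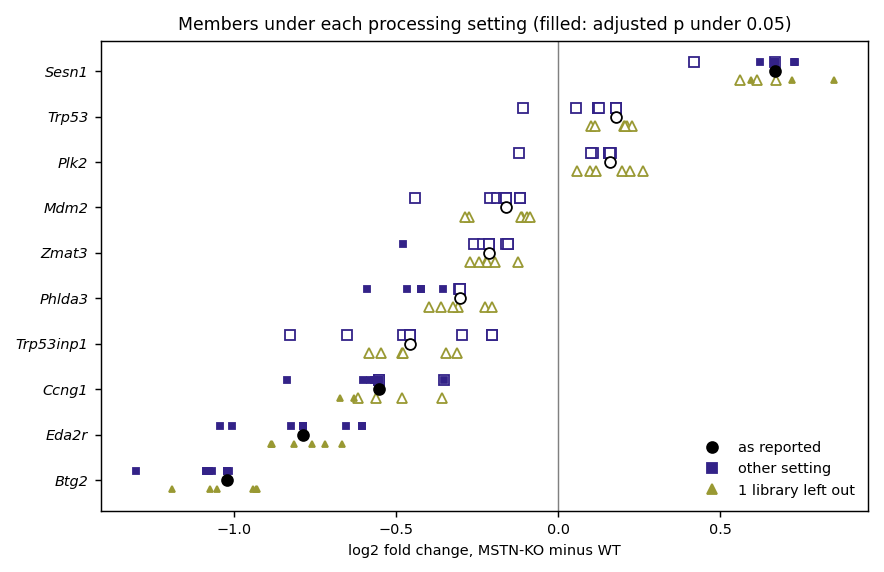
Log2FC (horizontal axis, MSTN-KO minus WT) of each of the 10 genes as reported (circles), under other settings (squares) and with 1 library left out (triangles). Filled symbols have a adjusted p under 0.05. *Btg2* and *Eda2r* are filled throughout, *Ccng1* and *Sesn1* in part, and *Trp53* and *Plk2* cross 0 only when libraries are scaled to a sum of 1000000.

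Each target was also expressed as a percent of *Trp53* in the same library, which cancels any scaling of the library but not differences that go with gene length. The order of these relative levels in WT was *Phlda3* at 145% ± 14.4, *Plk2* at 29.9% ± 3.69, *Ccng1* at 27.0% ± 1.66, *Mdm2* at 17.9% ± 3.26, *Btg2* at 15.3% ± 3.75, *Zmat3* at 6.62% ± 0.564, *Sesn1* at 4.72% ± 0.742, *Eda2r* at 2.94% ± 0.202 and *Trp53inp1* at 0.943% ± 0.175 (SD, n = 3). Of these, *Plk2* and *Ccng1* as well as *Mdm2* and *Btg2* were neighbours within their spread. In MSTN-KO, *Ccng1* was at 16.6% ± 5.06, *Btg2* at 6.25% ± 0.485, *Sesn1* at 7.13% ± 2.11 and *Eda2r* at 1.30% ± 0.366. *Btg2* thus stood below *Sesn1* on average in MSTN-KO, though *Sesn1* at 4.72% in replicate 3 was below *Btg2* at 6.10% in that library. *Ccng1*, *Zmat3*, *Phlda3*, *Eda2r*, *Trp53inp1* and *Btg2* were lower relative to *Trp53* in each MSTN-KO library than in any WT library (each p = 0.1, the smallest possible, by two-sided exact permutation). On this scale 27% of all tested genes lay lower without overlap and 9.49% higher, and *Trp53*, the denominator, itself had a log2FC of 0.18. For *Sesn1* the relative levels overlapped, since MSTN-KO replicate 3 was under WT replicate 2 at 5.55% (p = 0.2, exact permutation). The relative level of *Plk2* was 29.7% ± 5.14 in MSTN-KO (p = 1, exact permutation).

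**Figure D4:**
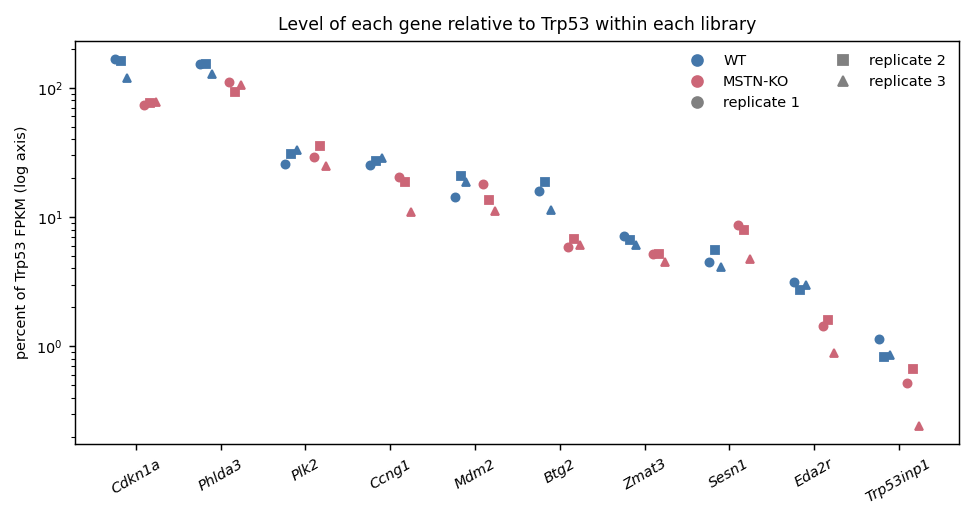
FPKM of *Cdkn1a* and 9 p53 targets as a percent of *Trp53* FPKM in the same library (vertical log axis). Blue points are WT and red points MSTN-KO libraries, with replicates 1, 2 and 3 as circle, square and triangle. *Cdkn1a* lies above 100% in all WT libraries and below 100% in all MSTN-KO libraries.

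To set these genes in the wider pathway, 40 other p53 targets were listed, also with earlier results known, of which 38 were tested. *Ptprv* was not analysed here, and *Perp* was under 1 FPKM in every library. In MSTN-KO 6 of the 38 (15.8%) were called higher and 7 (18.4%) lower, beside 8.78% and 8.96% of all tested genes, and the median log2FC was 0.011. The groups did not overlap for 8 higher and 10 lower of the 38 genes, beside 19.3% and 18.1% of all tested genes. The downregulated genes were *Pmaip1*, *Cdkn1a*, *Rrm2b*, *Polk*, *Epha2*, *Ei24* and *Tnfrsf10b*, and the upregulated genes were *Pltp*, *Fdxr*, *Dcxr*, *Ddit4*, *Gdf15* and *Sesn2*.

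*Cdkn1a* (chromosome 17, 29090976 to 29100727), the inhibitor of cyclin-dependent kinases through which p53 arrests cells and which also rises as myoblasts leave the cell cycle, was at 279, 232 and 195 FPKM in WT and at 124, 131 and 154 FPKM in MSTN-KO. WT replicate 3 was the lowest WT library, but it stayed above all MSTN-KO libraries. *Cdkn1a* fell with a log2FC of -0.77 and an SE of 0.15 (adjusted p = 0.00364), and it was called with each library left out. Relative to *Trp53*, *Cdkn1a* was at 148% ± 26.3 in WT and 75.8% ± 1.51 in MSTN-KO (SD, n = 3, exact permutation test, p = 0.1).

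Of the apoptotic targets *Pmaip1*, *Bbc3* and *Bax* of the BCL2 family, only *Pmaip1* passed the test. *Pmaip1*, which encodes the BH3-only protein NOXA, fell from 10.3, 11.1 and 12.7 FPKM in WT to 2.04, 5.07 and 2.43 FPKM in MSTN-KO. It was 3.58 times higher in WT, with a log2FC of -1.63 and an SE of 0.22 (adjusted p = 0.000326). *Bbc3*, which encodes the BH3-only protein PUMA, was at 12.98, 14.1 and 8.89 FPKM in WT and 10.3, 10.6 and 13.7 FPKM in MSTN-KO, with overlapping groups (-0.04, 95% interval -0.423 to 0.345, adjusted p = 0.902). *Bax*, the pore-forming effector, was at 346, 322 and 341 FPKM in WT and 434, 353 and 484 FPKM in MSTN-KO. Its groups did not overlap, but its log2FC of 0.32 did not pass (95% interval 0.0244 to 0.618, adjusted p = 0.124). It passed only without MSTN-KO replicate 2 (0.45, adjusted p = 0.0259).

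*Rrm2b* and *Polk*, which act in DNA repair, were named for the size of their falls, and 2 other repair targets of the list, *Xpc* (0.09, adjusted p = 0.711) and *Ercc5* (-0.28, adjusted p = 0.257), were not called. *Rrm2b*, the p53-induced subunit of ribonucleotide reductase, had 2.83 ± 0.504 FPKM in WT and 1.38 ± 0.558 FPKM in MSTN-KO (SD, n = 3), a log2FC of -0.71 (adjusted p = 0.0274). *Polk*, a translesion DNA polymerase, had 2.76 ± 0.612 and 1.44 ± 0.450 FPKM (-0.63, adjusted p = 0.0388). It lies on chromosome 13, whose tested genes had a median of -0.34. *Rrm2b* lost its call without WT replicate 1 (adjusted p = 0.109), WT replicate 2 (0.0668) or MSTN-KO replicate 3 (0.0834), without the filter (0.0666), under quantile normalization (0.0510) and after the length and GC correction (-0.47, 0.0709). *Polk* lost its call without WT replicate 2 (0.114), WT replicate 3 (0.127), MSTN-KO replicate 1 (0.0504) or MSTN-KO replicate 3 (0.122), without the filter (0.0769), under quantile normalization (0.0841) and with the block and the correction together (0.0577).

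The 4 largest rises were those of *Pltp*, *Fdxr*, *Dcxr* and *Ddit4*. *Fdxr*, the mitochondrial ferredoxin reductase, was at 13.9, 11.3 and 10.5 FPKM in WT and at 25.6, 23.6 and 26.5 FPKM in MSTN-KO, with tight and well separated groups. *Fdxr* rose with a log2FC of 1.03 and an SE of 0.14 (adjusted p = 0.000306). *Pltp*, a phospholipid transfer protein, rose from 26.9 ± 6.37 to 57.1 ± 7.60 FPKM (1.08, adjusted p = 0.00103). *Ddit4*, an inhibitor of mTORC1 that also responds to hypoxia and ATF4, rose from 44.4 ± 3.67 to 75.9 ± 8.18 FPKM (0.76, adjusted p = 0.00163). *Dcxr*, a carbonyl reductase of xylulose, rose from 15.9 ± 4.14 to 29.1 ± 6.38 FPKM (0.84, adjusted p = 0.0101), and its call was lost without MSTN-KO replicate 3 (0.71, adjusted p = 0.0624), without the filter (0.0508) and with libraries scaled to a sum of 1000000 (0.0510). *Ppm1d*, the phosphatase that switches p53 signalling off, was at 6.55 ± 0.521 and 6.64 ± 0.239 FPKM (0.02, 95% interval -0.284 to 0.323, adjusted p = 0.940).

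**Figure D5:**
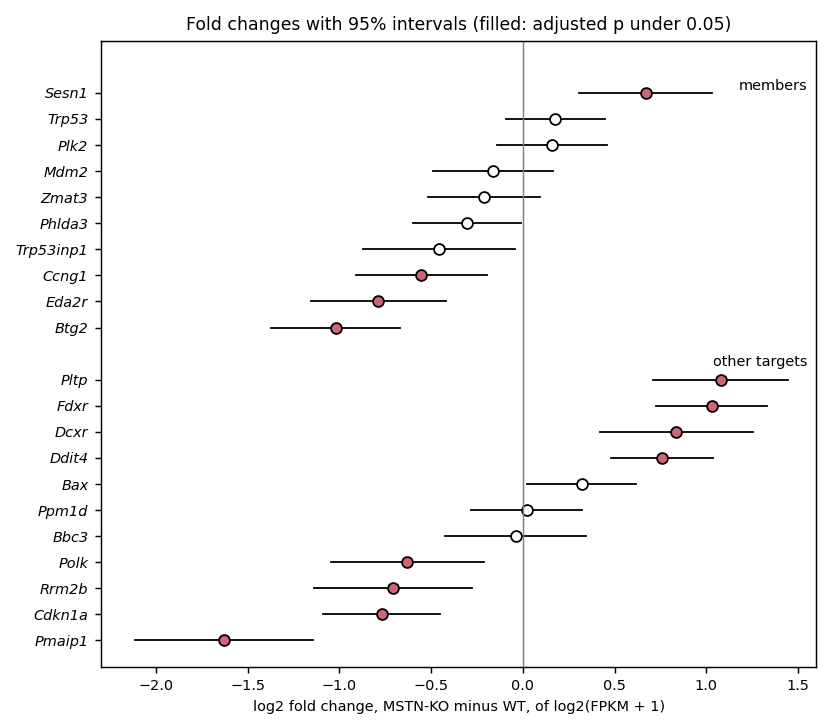
Log2FC (horizontal axis, MSTN-KO minus WT, of log2(FPKM + 1)) of the 10 described genes and of 11 other p53 targets. Lines are 95% intervals from limma and filled points have an adjusted p under 0.05. *Pmaip1* at -1.63 and *Btg2* at -1.02 are the largest falls, and *Pltp* at 1.08 and *Fdxr* at 1.03 the largest rises.

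The genes that control p53 were examined as a list. The list held the damage kinases *Atm*, *Atr*, *Chek1* and *Chek2* and the acetylases *Ep300* and *Crebbp*, among others. Of 21 tested regulators, 1 was called higher and 0 lower by limma, beside 8.78% and 8.96% of all tested genes. At an unadjusted limma p under 0.05, 2 were higher and 0 lower, beside 16.3% and 16.2% of all tested genes. The gene called higher was *Rpl5*, a ribosomal protein that can bind MDM2, at 377 ± 53.7 FPKM in WT and 503 ± 30.2 FPKM in MSTN-KO (0.42, adjusted p = 0.0486). It lost the call under 5 of the other settings, with the lowest log2FC under scaling to a sum of 1000000 (0.14, adjusted p = 0.388), and without WT replicate 1 (0.145), WT replicate 2 (0.128), MSTN-KO replicate 1 (0.170) or MSTN-KO replicate 3 (0.0968). *Mdm4*, the partner of MDM2 that masks the activation domain of p53, was at 4.36, 4.85 and 4.39 FPKM in WT and at 4.10, 3.84 and 2.44 FPKM in MSTN-KO. Its groups did not overlap, but the log2FC of -0.33 (95% interval -0.709 to 0.0485) did not pass (adjusted p = 0.209). *Mdm4* lies on chromosome 1, whose 627 tested genes had a median of -0.25. *Cdkn2a*, the source of the MDM2 inhibitor ARF, was not analysed here.

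Of the family relatives of the 10 genes, 13 were tested, and 2 were called higher and 0 lower by limma, again beside 8.78% and 8.96%. At an unadjusted limma p under 0.05, 3 were higher and 1 lower, beside 16.3% and 16.2% of all tested genes. *Btg3*, a relative of *Btg2*, rose from 23.8 ± 3.52 to 36.0 ± 4.30 FPKM (0.58, adjusted p = 0.0165), the direction opposite to *Btg2*. Its adjusted p was 0.0587 without WT replicate 1, 0.0539 without WT replicate 2, 0.0632 without MSTN-KO replicate 1 and 0.0651 without MSTN-KO replicate 3, and 0.113 with libraries scaled to a sum of 1000000 (0.30). *Sesn2*, a relative of *Sesn1* that answers to ATF4 as well as p53 and is counted among the other targets too, rose from 10.6 ± 1.49 to 14.9 ± 1.46 FPKM (0.46, adjusted p = 0.0454), and lost the call without WT replicate 2 (0.188), WT replicate 3 (0.127), MSTN-KO replicate 1 (0.114) or MSTN-KO replicate 3 (0.122). It also lost it under the replicate block (0.0623), without the filter (0.0770) or trend (0.0519), and with libraries scaled by percentile 75 (0.0529) or to a sum of 1000000 (0.20, adjusted p = 0.292). The p53 relatives *Trp63* and *Trp73* were at or below 0.269 FPKM in every library and were not tested.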

How the data were processed

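Groups (WT and MSTN-KO, 3 libraries each) and replicate numbers of the C2C12 samples came from the titles. After Illumina sequencing of the RNA the authors deposited FPKM values per gene, 1 library per file, without pooling replicates. The submitters' processing notes name Bowtie 0.12.2 and mm8, with no role stated. The annotation and any gene filter are not given in the sources used here. FPKM falls for all genes when a few genes take more of a library. Nothing says that the replicates are separate cultures, so p-values measure the spread between libraries, which may be technical.

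Symbols and positions came from GENCODE M21 (GRCm38), with 14454 of 14548 identifiers matched, and promoter sequences from RefSeq (GRCm38.p6). These are not in mm8 coordinates. Genes reaching 1 FPKM in any library were transformed to log2(FPKM + 1) and tested in R 4.3.3 by limma 3.58.1, using a mean-variance trend. Tested on simulated data (10837 genes, 200 of them shifted by a log2 change of 2), the fit recovered 100% of the shifted genes and called 5 others. That shift was larger than the change of any of the 10 genes, of which *Btg2* at -1.02 had the largest. The shifted genes were drawn only from those with a mean log2 value above 2. The recovery therefore does not carry over to smaller changes or to genes with low FPKM. Genes and lists were chosen with earlier results of these data known. Outside the 10 genes, the text gives fixed ones (*Cdkn1a*, *Bax*, *Bbc3*, *Ppm1d*, *Mdm4*, *Cdkn2a*, *Trp63*, *Trp73*, *Eda*), the 3 nearest in pattern to *Trp53*, and the 4 (other targets) or 3 (regulators, relatives) largest rises and falls that were called without overlap of the groups. *Rps27l* and *Gtse1* (for their sites) and *Xpc* and *Ercc5* were added after their values had been seen, and the remaining called targets and *Perp* were named for completeness.

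Fits were repeated with quantile normalization, with each library scaled to a sum of 1000000 or by its percentile 75, with a pseudocount of 0.1, without the filter or with one on the mean, without the trend, after smoothing out gene length and GC content (mgcv 1.9.3), with a replicate block, with that block and the correction, by the study's criterion for DEGs, and leaving out each library. Tables and figures were made in Python 3.11.15 (matplotlib 3.10.9, numpy 2.4.6, scipy 1.17.1, pandas 2.3.3).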

Additional observations from a re-analysis of the deposited data

How the results depend on the processing

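With each library left out, the genes called ran from 419 to 1175 higher and from 611 to 1233 lower (952 and 971 with all libraries), the described genes from 0 to 1 higher and from 2 to 3 lower, the other p53 targets from 3 to 7 higher and from 3 to 5 lower, and the regulators and relatives from 0 to 4 higher and from 0 to 1 lower. Scaling to a sum of 1000000, which moves the median of all genes by -0.26, gave 350 higher and 2367 lower genes, 0 higher and 5 lower described genes, 3 other targets higher, and 0 regulators and relatives higher and 4 lower. It turned *Trp53* to -0.11, *Plk2* to -0.12, *Ppm1d* to -0.23, *Mcm2* to -0.078, *Ftsj1* to -0.093 and *Slc2a1* to -0.091. Relative to that shift all 6 stayed above 0, by 0.02 to 0.18. Without the filter 0 described genes were higher, 3 other targets higher and 4 lower, and 1 regulator or relative higher. That last count was also 1 without the trend and with scaling by the percentile 75, and 5 after the length and GC correction, with 1 lower. Over all genes, 720 were higher without the filter, 836 without the trend, 871 with that scaling and 1212 after the correction. After the correction 1344 of all genes were lower. The study's criterion, applied to the limma fit, gave 131 higher and 249 lower genes. It gave 0 higher and 1 lower described genes, 2 higher and 1 lower other targets and 0 regulators and relatives higher. These are not the study's own counts, since the study applied its cutoffs in the iDEP software and reported more higher than lower genes. *Ppm1d* was -0.026 with scaling by the percentile 75 and -0.025 after the length and GC correction, with or without the block, and -0.030 to 0.069 with a library left out. *Bbc3* was -0.22 to 0.080 with a library left out, and 0.027, 0.029 and 0.013 were its values without WT replicate 1, MSTN-KO replicate 1 and MSTN-KO replicate 2. *Ppm1d* was -0.0021 without MSTN-KO replicate 3. The causes were not tested.

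The replicate numbers did not pair the libraries, since deviations of same-numbered libraries correlated at -0.142 to -0.0153. With the replicate block, 939 genes were higher and 1001 lower, and the 1 higher and 3 lower described genes were the same. With the block alone and with the length and GC correction, 1 regulator or relative was lower. Depth is unknown from FPKM, so the counting error of genes at a few FPKM, such as *Trp53inp1*, *Polk* and *Rrm2b*, is not known.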
